A study of Mus musculus with 40 samples.

Results

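Memantine blocks the open channel of NMDA-type glutamate receptors, and the comparison described here asked what its repeated injection did to the cortical transcriptome of mice that received no head impact. It covers 20 of the 40 RNA sequencing libraries of a mouse study, 10 from saline sham mice and 10 from memantine sham mice, chosen by the treatment in their labels, and it runs across all transcripts and across the sum of the transcripts of each gene. All were male C57BL/6 mice, of substrain J by the methods of the study, aged 12 weeks, whose cortex was dissected 24 h after the last session. Sham mice were handled and anaesthetised with isoflurane like the impacted mice but were not struck, so both groups also shared repeated anaesthesia and daily intraperitoneal injection, with memantine or saline given 1 h before each session. The remaining 20 libraries came from high-frequency head impact (HF-HI) mice given saline or memantine, and are used here to ask whether a drug change seen in sham mice also appeared in separate animals. The labels number the libraries of a group without saying how each maps to an animal, so p-values measure the spread between libraries. The limma fit took that spread from all 40 libraries, and the permutation tests used the 20 sham libraries.

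The deposited table held 6831 abundant RefSeq transcripts, which gave 5875 gene sums. Summed reads ran from 13352944 to 17411169 per library in saline sham and from 13322404 to 16482024 in memantine sham, and any pair of sham libraries had a Pearson correlation between 0.942 and 0.964 across transcripts. The cortical and neuronal markers Slc17a7, Snap25 and Tbr1 were present in every library. Rbfox3, also a neuronal marker, varied more. It ran from 198 to 2226 normalised counts in saline sham (median 1923) and from 203 to 2539 in memantine sham (median 2048). Of the striatal markers Ppp1r1b, Rgs9 and Penk, all were present too, between 2351 and 4419 normalised counts in saline sham and between 2573 and 4284 in memantine sham. The choroid plexus marker Ttr ran from 74.5 to 15798 normalised counts in saline sham (median 304) and from 98 to 22031 in memantine sham (median 2919). Its median was thus higher with memantine, while its libraries overlapped between groups (unadjusted limma p = 0.356). In whole cortex, fewer cells of a type and less RNA per cell cannot be told apart.

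The cells of nearly every tissue, cortex included, keep a molecular clock that runs on feedback. A complex of CLOCK or NPAS2 with BMAL1, the product of Arntl, binds E-box sequences and drives the Per and Cry genes, whose proteins then inhibit it, and it also drives the nuclear receptors of the Nr1d group, which repress Arntl. Dbp, Tef and Hlf encode a family of transcription factors that carry the rhythm to other genes through D-box sequences. Levels of these transcripts change with the hour of the day, and the clock time at which the mice were sampled is not given in the sources used here. Whether both sham groups were sampled in the same hours is not given either, and the part of the sampling hour was not tested.

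Short stretches upstream of clock genes are shown because those of Tef, Nr1d2 and Per3, described next, hold letter matches to motifs searched for here. Binding to them was not measured. The sequences come from RefSeq on mouse build GRCm38.p6, run 5′ to 3′ on the strand of the gene, and were picked because a match was found. Capitals mark the E-box CACGTG in both Tef stretches, the nuclear receptor half-site AGGTCA in Nr1d2 and the D-box TTANGTAA in Per3.
Tef, chr15:81802534-81802563, plus strand, before the first annotated start: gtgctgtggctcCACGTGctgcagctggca
Tef, chr15:81811264-81811293, plus strand, before the other start: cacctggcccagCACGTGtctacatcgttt
Nr1d2, chr14:18239157-18239356, minus strand: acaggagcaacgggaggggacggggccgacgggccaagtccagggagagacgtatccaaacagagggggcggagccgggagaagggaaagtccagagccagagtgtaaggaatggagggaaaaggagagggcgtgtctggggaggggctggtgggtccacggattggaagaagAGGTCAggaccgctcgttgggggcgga
Per3, chr4:151044716-151044915, minus strand: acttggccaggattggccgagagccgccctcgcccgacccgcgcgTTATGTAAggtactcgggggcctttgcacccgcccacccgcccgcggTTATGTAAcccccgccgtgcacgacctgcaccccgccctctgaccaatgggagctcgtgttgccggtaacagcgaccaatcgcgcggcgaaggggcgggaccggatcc
Both strands were searched from 250 bases before to 50 bases after each start. Of 32851 mouse promoter windows of that length, 7.15% held CACGTG, 2.32% held TTANGTAA and 16.3% held AGGTCA. Of the 15 measured clock genes with an entry, 3 held the E-box in at least 1 window (Tef, Per1 and Bhlhe41), 2 the D-box (Per3 and Rorb) and 4 the half-site (Nr1d2, Per1, Arntl and Clock). Dbp, Hlf, Cry2 and Nr1d1 held none of the 3 in this window, which says only that these letters were not there.

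Most transcripts differed little. At an unadjusted p-value under 0.05 in limma, 513 of 6831 transcripts (7.51%) differed between memantine sham and saline sham, 251 of them higher with the drug (3.67%) and 262 lower (3.84%). Among gene sums, 464 of 5875 (7.9%) passed the same threshold, 224 higher (3.81%) and 240 lower (4.09%). The changes were small: 361 of these 464 gene sums differed by under 10% in mean count, and 23 by over 20%. After Benjamini-Hochberg adjustment in limma, 2 transcripts (0.0293%) and 3 gene sums (0.0511%) had an adjusted p-value under 0.1, the false discovery limit in the methods of the study, and all of them belonged to the clock. In what follows a gene is said to have risen or fallen where its gene sum, or the transcript named, passed the unadjusted threshold, and log2 changes of gene sums are on the scale of log2(normalised count + 1).

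The 3 were Dbp, Tef and Nr1d2. Dbp ran from 868 to 1132 normalised counts in saline sham, with a median of 1011, and from 1176 to 1597 in memantine sham, with a median of 1391. The lowest memantine library was above the highest saline library. The gene rose by 0.47 ± 0.07 (SE) on the log2 scale, or 38%, adjusted p = 9.52e-05 in limma, and a two-sided permutation test gave 1e-05, the smallest p-value that 100000 resamples allow. Dbp lies on chromosome 7, from 45705100 to 45710203 in mm10, and the table held 1 transcript of it. Isoforms below the abundance limit of the table were not analysed here.

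Nr1d2, which encodes the repressor REV-ERBβ, had from 3376 to 4068 normalised counts in saline sham (median 3898) and from 4109 to 4626 in memantine sham (median 4275). Again no library of one group reached the range of the other, although the step was smaller. The rise was 0.18 ± 0.03 (SE) on the log2 scale, or 12.9%, adjusted p = 0.0159 in limma for the gene sum and 0.032 for the transcript, and the permutation test gave 1e-05. Dbp and Nr1d2 were 2 of 5875 gene sums (0.034%) whose groups did not overlap.

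Tef, a partner of Dbp in the same family, had from 5887 to 7235 counts in saline sham (median 6475) and from 6985 to 8326 in memantine sham (median 7525). The groups overlapped only between 6985 and 7235, and 10 of 10 memantine libraries were above the saline mean. The sum of its transcripts rose by 0.23 ± 0.04 (SE) on the log2 scale, or 17.2%, adjusted p = 0.00483 in limma, and the permutation test gave 3e-05. Hlf, the remaining member of the family, rose from 3699 ± 396 to 4253 ± 327 counts (mean ± SD, n = 10 each), with an unadjusted limma p-value of 0.000897 and an adjusted one of 0.277. Every memantine library of Hlf was above the saline mean of that gene.

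**Figure D1:**
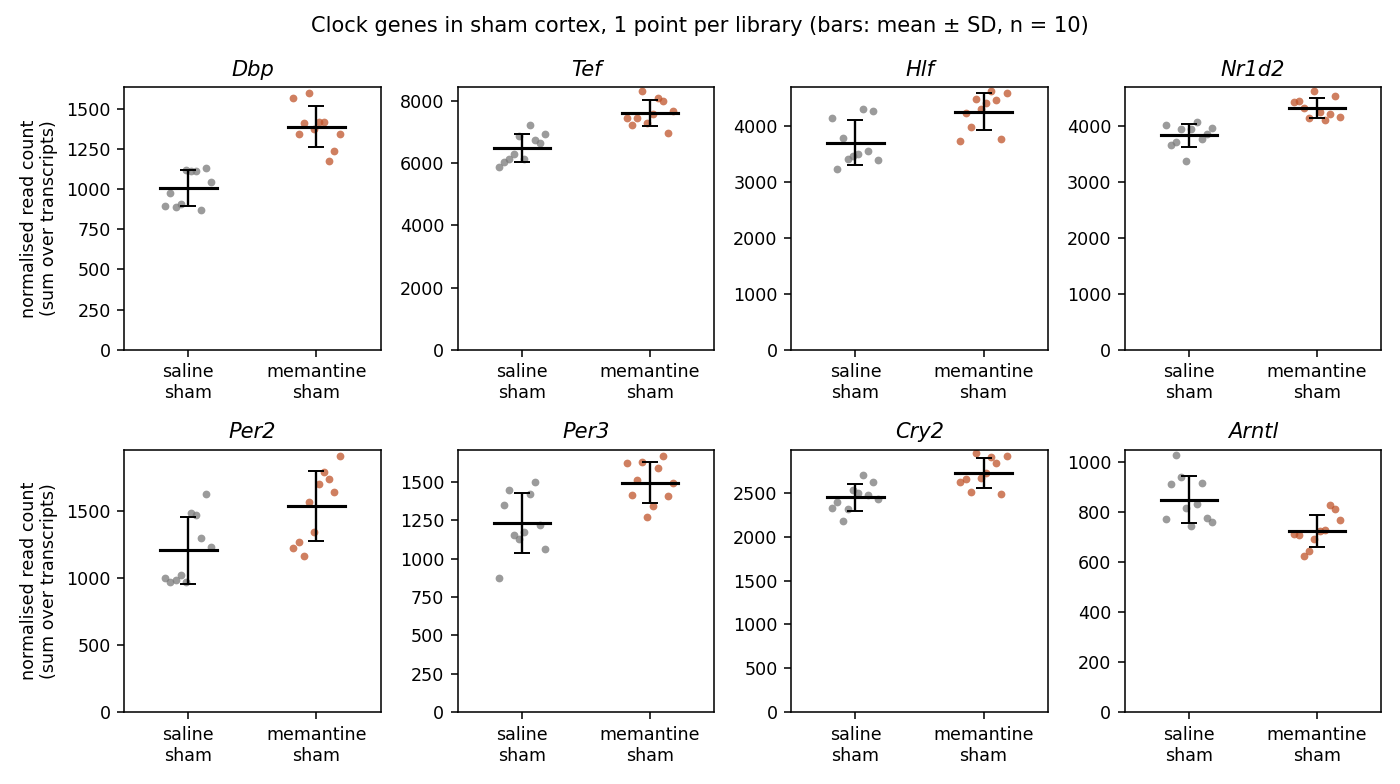
Normalised read count (y axis, from 0) of 8 clock gene sums in saline sham and memantine sham cortex, with 1 point per library and bars for the mean ± SD of 10 libraries. Dbp and Nr1d2 show separate groups, Tef nearly so, and Arntl is the gene with the lower memantine group.

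Of the 2 measured transcripts of Tef, 1 was higher with the drug in sham mice, and the estimates pointed the other way in HF-HI mice. NM_153484, annotated from the first start, ran from 2023 to 5748 counts in saline sham (median 4794) and from 5093 to 7297 in memantine sham (median 6328). NM_017376, from the start further downstream, ran from 982 to 4266 (median 1644) and from 989 to 2148 (median 1166). The first transcript rose (limma p = 0.000360 unadjusted and 0.281 adjusted, permutation p = 0.00013), while the other pointed down without passing the threshold (limma p = 0.077). NM_153484 made up a median of 74.5% of the Tef counts in saline sham, with libraries from 32.2% to 84%, and a median of 83.9% in memantine sham, from 70.3% to 87.7%. How reads that fit both transcripts were divided depends on the authors' software, whereas the sum does not rest on it. Among saline libraries the SD was 455 counts for the Tef sum, against 1095 for NM_153484 and 997 for NM_017376. In HF-HI mice NM_153484 changed by -0.09 ± 0.09 (SE) on the scale of the deposited values (limma p = 0.327). NM_017376 rose there by 0.28 ± 0.14 (limma p = 0.0442 unadjusted), and the adjusted limma p-value was 0.9995 for each. The difference of the drug change between sham and HF-HI mice had unadjusted limma p-values of 0.0013 and 0.00893 for the 2 transcripts. The adjusted ones were both 0.999, and 3.73% of all transcripts had an unadjusted p-value under 0.05 for this difference. NM_153484 had been picked for its change in sham mice, so its value is no independent test.

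**Figure D2:**
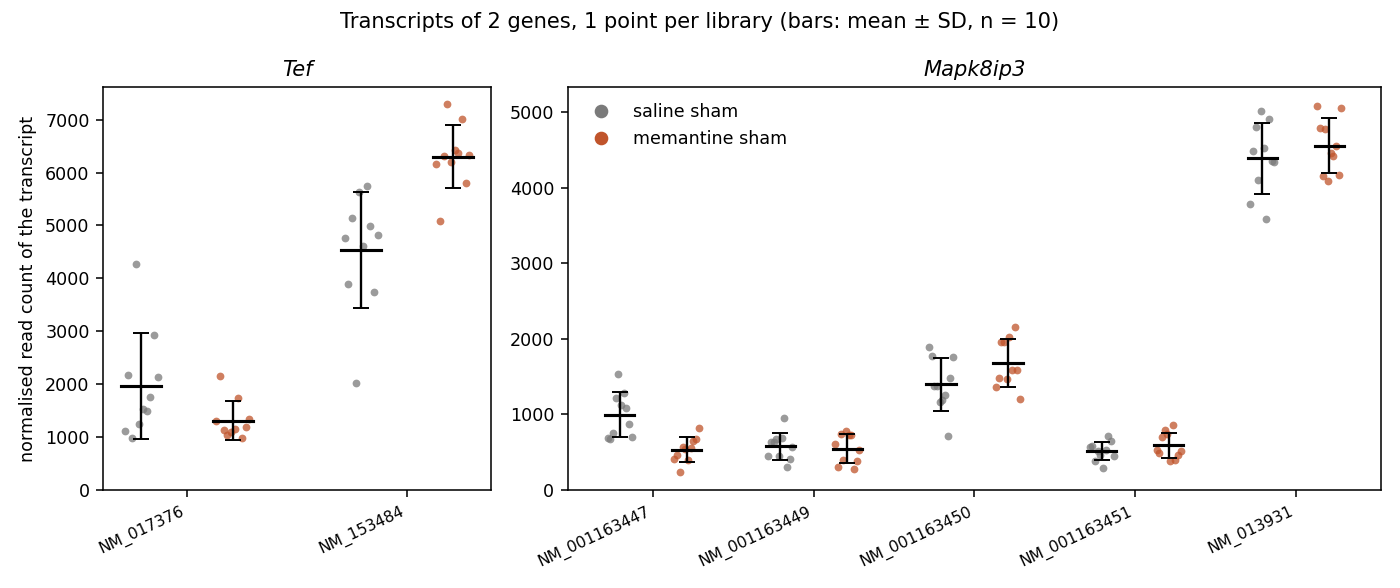
Normalised read count (y axis, from 0) of each measured transcript of Tef and Mapk8ip3 in saline sham (grey) and memantine sham (orange), with 1 point per library and bars for the mean ± SD of 10 libraries. NM_153484 of Tef is higher and NM_001163447 of Mapk8ip3 lower with memantine. The other transcripts of each gene overlap widely between groups, and of these NM_001163450 of Mapk8ip3 passed the unadjusted threshold as higher (limma p = 0.0309).

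The negative arm of the loop rose in part. Per2 had from 970.1 to 1624 counts in saline sham (median 1129.5) and from 1164 to 1908 in memantine sham (median 1606), a change of 0.36 ± 0.11 (SE) on the log2 scale. The groups overlapped, and 9 of 10 memantine libraries were above the saline mean (limma p = 0.00241 unadjusted and 0.390 adjusted, permutation p = 0.0112). The spread of Per2 followed the library number, a pattern noticed after the values were seen. Replicates 1 to 5 ran from 970.1 to 1024 in saline sham and from 1164 to 1571 in memantine sham, and replicates 6 to 10 from 1235 to 1624 and from 1642 to 1908. In each group the higher numbers lay above all lower ones, and the memantine library was higher in 10 of 10 pairs with the same number. In the HF-HI libraries the ranges of lower and higher numbers overlapped in both drug groups. What the numbers stand for is not given in the labels. With the number as an added term (the replicate block), the limma p-value of Per2 was 0.0001 unadjusted and 0.118 adjusted. Their part in the result was not tested otherwise. Per3 rose by 0.29 ± 0.09 (SE), from 1233 ± 196 to 1495 ± 133 counts (mean ± SD, n = 10 each; limma p = 0.0028). Cry2, which encodes the partner of the PER proteins, rose by 0.16 ± 0.05 (SE), from 2446 ± 154 to 2727 ± 168 counts (limma p = 0.00182). Both were above the saline mean in 10 of 10 memantine libraries. Per1 had a change of similar size to Per3, 0.29 ± 0.15 (SE), but a wider spread, with saline libraries from 762 to 1635 and memantine libraries from 1045 to 1854 (limma p = 0.0593). Nr1d1, the relative of Nr1d2, changed by 0.17 ± 0.10 (SE; limma p = 0.0909).

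Arntl moved the other way. It had from 743 to 1027 counts in saline sham (median 823) and from 622 to 828 in memantine sham (median 717), and no memantine library exceeded the saline mean. Replicates 1 to 5 ran from 772.1 to 1027 in saline sham and from 622.4 to 710.5 in memantine sham. Replicates 6 to 10 ran from 743.5 to 914.2 and from 723.8 to 828.5, so the groups overlapped there. With the replicate block the limma p-value was 0.000305 unadjusted and 0.207 adjusted. The part of the number was not tested otherwise. Arntl fell by 0.23 on the log2 scale (SE 0.05), or 14.8%, and it had the smallest p-value of all gene sums that were lower with the drug (limma p = 0.000170 unadjusted and 0.238 adjusted, permutation p = 0.00226). The DNA-binding partners of its product gave no call, with changes of -0.05 ± 0.05 (SE) for Clock and -0.07 ± 0.05 for Npas2. Rora and Rorb, activators that bind the same element as the Nr1d receptors, changed by 0.0035 ± 0.13 (SE) and 0.08 ± 0.26, both with wide errors. The kinase genes Csnk1d and Csnk1e, and Btrc, whose product serves the degradation of PER proteins, had unadjusted p-values from 0.165 for Csnk1e to 0.607 for Csnk1d. Bhlhe40 and Bhlhe41, E-box repressors, changed by 0.07 ± 0.09 (SE) and 0.15 ± 0.12.

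Of 20 measured clock and clock output gene sums, 8 passed the threshold, 7 higher and Arntl lower. By list these were 4 higher and 1 lower of 15 core genes (median log2 change 0.08) and 3 higher and 0 lower of 5 output genes (median 0.20), beside a median of -0.000275 over all gene sums and the 7.9% that passed among them. The core counts stayed at 4 or 5 higher and 1 or 2 lower, and the output counts at 3 and 0, over 29 alternative fits, which leave out the one restricted to higher counts. Cry1, Fbxl21, Nfil3, Ciart, Usp2 and Wee1 were not in the table and have no value here.

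In HF-HI mice, the same drug comparison used 20 other libraries. There 216 of 5875 gene sums (3.68%) and 267 transcripts (3.91%) passed the unadjusted threshold and 0 the adjusted one in limma, with a smallest adjusted p-value of 0.839. Of the clock genes, Dbp and Tef passed, with changes of 0.20 ± 0.07 (SE; limma p = 0.0045) and 0.10 ± 0.04 (limma p = 0.0242). Of the 8 clock gene sums called in sham mice, 7 had the same sign in HF-HI mice, all 8 were smaller there, and Per3 was at -0.0091 ± 0.09. The difference of the drug change, sham minus HF-HI, was 0.27 ± 0.09 (SE) for Dbp (limma p = 0.00617), 0.13 ± 0.05 for Nr1d2 (limma p = 0.0117), 0.13 ± 0.06 for Tef (limma p = 0.0246) and -0.17 ± 0.08 for Arntl (limma p = 0.0348). Of the 8, 6 had an unadjusted p-value under 0.05 for this difference, as did 211 of all gene sums (3.59%) and 3.73% of transcripts, and 0 gene sums had an adjusted one under 0.1 in limma, the smallest being 0.999. The genes had been picked for their change in sham mice, which is one side of the difference, so these values are no independent test of it.

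**Figure D3:**
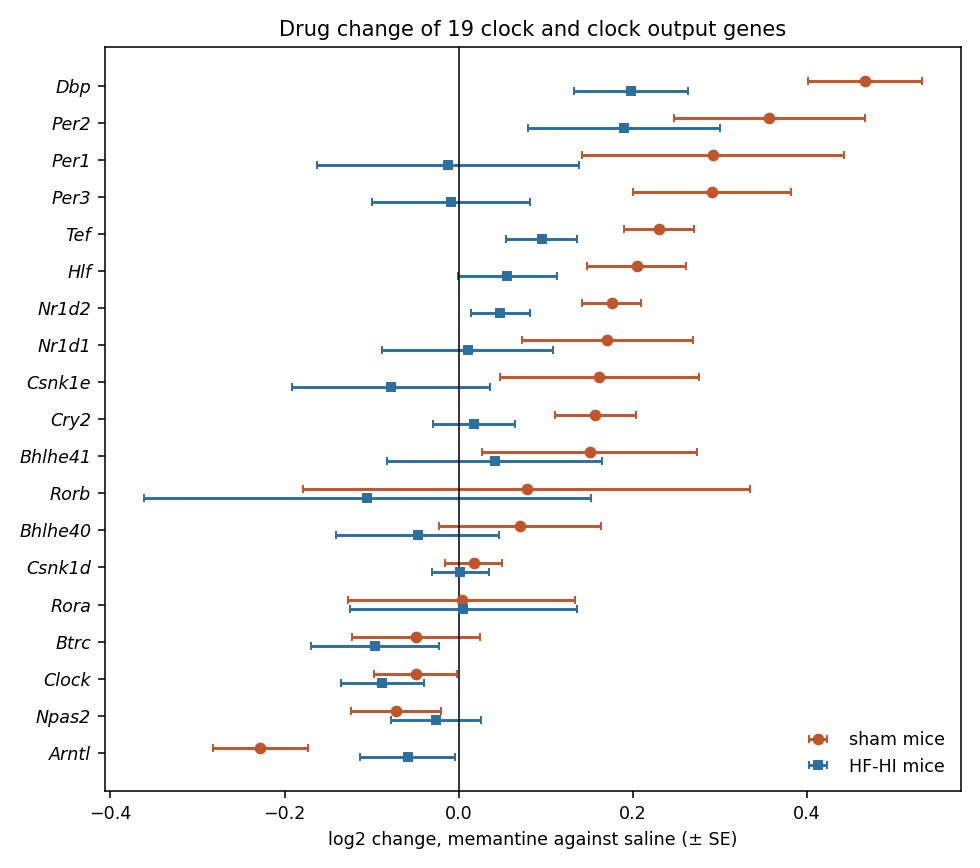
Log2 change with memantine against saline (x axis, with bars for the SE) of 19 clock and clock output gene sums, in sham mice (orange circles) and in HF-HI mice (blue squares), 10 libraries per group. Dbp, Tef, Hlf, Nr1d2, Per2, Per3 and Cry2 lie to the right and Arntl to the left in sham mice, and the HF-HI values of these genes lie nearer to 0.

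Outside the clock, the gene sums with the smallest p-values differed by small steps and did not pass adjustment (adjusted p from 0.238 to 0.277 in limma). Vps13a, which encodes a lipid transfer protein, rose from 5065 ± 249.8 to 5518 ± 274 counts (mean ± SD, n = 10 each), and Ulk2, a kinase of autophagy, from 2866 ± 95.8 to 3057 ± 64.9. Rhobtb2 rose from 2261 ± 82.9 to 2536 ± 226, the uncharacterised transcript 4933431E20Rik from 1595 ± 109 to 1754 ± 112, and Arhgap32, which encodes a GTPase-activating protein, from 13285 ± 633 to 14666 ± 911. Ulk2 and Rhobtb2 were above the saline mean in 10 of 10 memantine libraries, and the other 3 in 9 of 10.

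Among the falling ones, Lrba, whose product acts in vesicle trafficking, had the largest change, from 2584 ± 273 to 2037 ± 356 counts. Man1b1, a mannosidase of the endoplasmic reticulum, fell from 1358 ± 55.3 to 1268 ± 37.2, and Vapa, which tethers that membrane to others, from 2027 ± 55.6 to 1916 ± 47.9. Pam, the enzyme that amidates neuropeptides, fell by 5.76% and Tspyl5 fell by 7.21%. Wdr75, which serves ribosome biogenesis, fell from 622 ± 29.8 to 565 ± 28.1, and Syndig1, a protein associated with AMPA receptors, from 750.2 ± 31.8 to 680.3 ± 43.2. Man1b1, Tspyl5, Vapa and Wdr75 were below the saline mean in all 10 memantine libraries.

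A pair of potassium channel genes was singled out after its values had been seen. Kcnj11 and Abcc8 encode the pore and the regulatory subunit of the ATP-sensitive potassium channel. Kcnj11 had from 491 to 706 counts in saline sham (median 564) and from 601 to 706 in memantine sham (median 655). Abcc8 had from 574 to 694 (median 601) and from 634 to 769.9 (median 699). In both genes all 10 memantine libraries were above the saline mean, while the group ranges overlapped. Kcnj11 rose by 0.20 ± 0.06 (SE) on the log2 scale and Abcc8 by 0.18 ± 0.06, with unadjusted limma p-values of 0.00166 and 0.00268 and an adjusted one of 0.390 for each. In HF-HI mice the changes were -0.02 ± 0.06 (SE) and -0.04 ± 0.06.

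NMDA receptor subunits, the targets of the drug, gave no call. Grin1, the obligatory subunit, had a median of 5619 counts in saline sham and 5886 in memantine sham, with libraries from 5384 to 6334 and from 5308 to 6959. Grin2b had medians of 10416 and 10566, and Grin2a of 5332 and 5514. The groups overlapped throughout. The log2 changes were 0.05 ± 0.05 (SE) for Grin1, 0.01 ± 0.04 for Grin2a, 0.0034 ± 0.03 for Grin2b, 0.02 ± 0.07 for Grin2c and -0.19 ± 0.14 for Grin3a, with unadjusted limma p-values from 0.172 upward. Chrna4 and Chrnb2, nicotinic receptor subunits measured as other channels that the drug can block, gave 0 calls of 2.

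The immediate early genes, which report recent neuronal activity, gave 0 calls of 10. Arc, which acts at synapses, had from 1874 to 4537 counts in saline sham (median 2431) and from 1611 to 6551 in memantine sham (median 3638). The transcription factor gene Egr1 had medians of 1863 and 2256. Both genes varied more between libraries of a group than between groups, with changes of 0.25 ± 0.25 (SE) and 0.04 ± 0.19 on the log2 scale. The smallest unadjusted limma p-value in the list was 0.103, for Nptx2, at -0.15 ± 0.09.

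Over all gene sums 7.9% passed the threshold, and the shares in 5 lists of other synapse genes ran from 2.78% to 28.6%. Of 10 AMPA receptor and auxiliary genes (10% called), 0 were higher and 1 lower: Gria2 fell from 22115 ± 619.7 to 19626 ± 2581 counts (limma p = 0.0352), with memantine libraries spread from 15610.3 to 22202. Of 7 kainate and metabotropic receptor genes (28.6% called), the kainate subunits Grik3 and Grik5 rose by 8.11% and 14.9%. Of 18 genes of the GABA system 2 fell (11.1%), namely Gabra2, a receptor subunit, from 1540.2 ± 134 to 1403 ± 89.0 counts, and Gad1, which makes GABA, from 7414 ± 473 to 7053 ± 303. Of 31 postsynaptic density genes (6.45% called), the kinase gene Camk2g rose from 4862 ± 287 to 5201 ± 190 counts and Lrrtm4, a synaptic adhesion gene, fell from 791 ± 114 to 619 ± 106. Of 36 presynaptic genes (2.78% called), the scaffold gene Ppfia1 fell from 963 ± 133 to 782 ± 134. These lists had median log2 changes of -0.0083, -0.016, -0.027, 0.06 and 0.02 in the order given, beside -0.000275 over all gene sums.

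Among 47 voltage-gated channel genes, 37 had a positive change, against 49.9% of all gene sums. Of the 47, 3 rose and 1 fell, a share of 8.51% that is near the 7.9% over all gene sums. Kcna1, an axonal potassium channel, ran from 7314 to 8984 counts in saline sham and from 8306 to 9316 in memantine sham, and Scn8a, the sodium channel of the axon initial segment, from 10269.7 to 11903 and from 11455 to 12991. All 10 memantine libraries of both were above the saline mean, within overlapping ranges (limma p = 0.00224 and 0.00454, adjusted 0.390 and 0.405). Kcnip4, a potassium channel partner, rose by 19.8%, and Cacna2d3, a calcium channel subunit, fell by 5.33%. The median change of the list was 0.04.

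In the axonal transport list, 4 rose and 1 fell of 38 (13.2%, beside 7.9% over all gene sums), with a median of 0.0056. Dync1h1, the dynein heavy chain, rose by 2.14%, the kinesin genes Kif1b and Kif1c by 2.92% and 6.51%, and the microtubule protein gene Map1a by 8.5%, while Dctn6, a dynactin subunit, fell by 13.3%.

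In the heat shock, ribosomal, proteasome and oxidative phosphorylation lists most members had a negative change, beside 50.1% of all gene sums, and the shares called were 20%, 9.21%, 9.38% and 3.08%, beside 7.9%. Of 15 heat shock and chaperone genes, all 15 had a negative change, with a median of -0.07, and 3 passed the threshold. Hspa8, the constitutive cytosolic chaperone, fell from 33658 ± 2279 to 32072 ± 1397 counts (limma p = 0.0461), Hspa4 from 5383 ± 238 to 5105 ± 142 (limma p = 0.00636) and Dnaja1, a co-chaperone, from 3758 ± 357 to 3437 ± 277 (limma p = 0.0262). None had an adjusted p-value under 0.1. Of 76 ribosomal protein genes, 62 were negative (median -0.03) and 7 fell, with changes from -0.04 to -0.08 on the log2 scale, among them Rpl4, Rpl7, Rpl12, Rpl37, Rps4x and Rps7. Of 32 proteasome genes, 26 were negative (median -0.04) and Psma6, Psma7 and Psmb1 fell. Of 65 oxidative phosphorylation genes, 49 were negative (median -0.02) and Atp5g3 and Ndufc2 fell. The number of negative members stayed between 14 and 15, 55 and 70, 24 and 29, and 43 and 53 in these 4 lists over 29 alternative fits. The number that fell at the threshold was less stable, from 1 to 6, 3 to 13, 2 to 7 and 0 to 4 in the order of the lists.

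**Figure D4:**
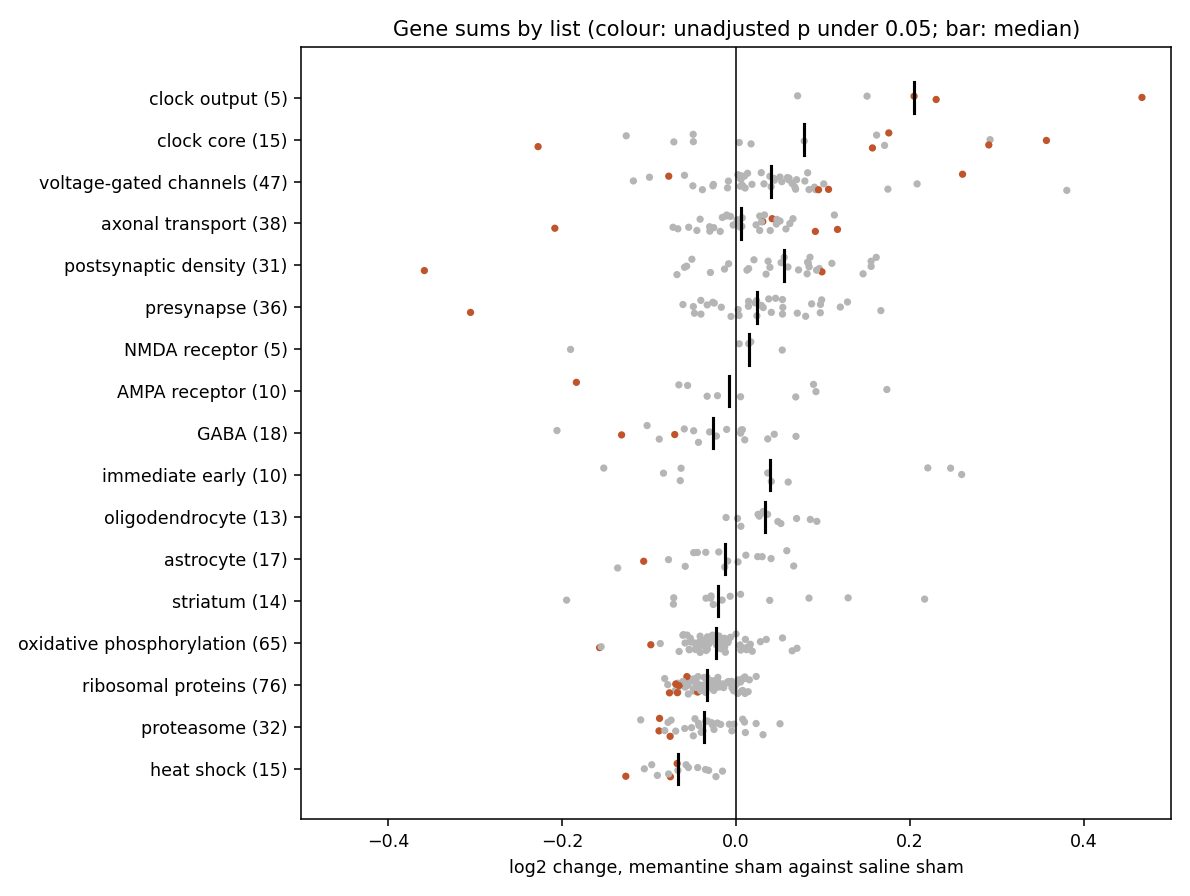
Log2 change of gene sums in memantine sham against saline sham (x axis) for 17 gene lists, with the number of measured genes in brackets, 1 point per gene, colour where the unadjusted p-value was under 0.05 and a black bar at the median of the list. The clock output list lies to the right and the heat shock, proteasome and ribosomal protein lists lie slightly to the left, and 2 gene sums lie outside the plotted range.

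Transcript length moved with these directions. Transcripts that were higher with memantine at the unadjusted threshold had a median length of 4583 bases and those that were lower 3340, beside 4008 over all transcripts. Among the shortest transcripts, of up to 2407 bases, 36.8% had a positive change, 21 were called higher and 78 lower. Among the longest, from 6322 bases and as many in number, 54.3% had a positive change, with 70 called higher and 32 lower. Among those of 2408 to 3471, 3472 to 4550 and 4551 to 6321 bases, 50.5%, 52.4% and 54.6% had a positive change, so the shortest transcripts stood apart most. In the HF-HI mice the shares with a positive change were 39.6% for the shortest and 57.8% for the longest. Ribosomal protein transcripts had a median length of 814.5 bases, proteasome transcripts 1526 and heat shock transcripts 2719, against 6984 for voltage-gated channels and 5097 for axonal transport. The part of length, or of RNA integrity, in these small and broad shifts was not tested.

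**Figure D5:**
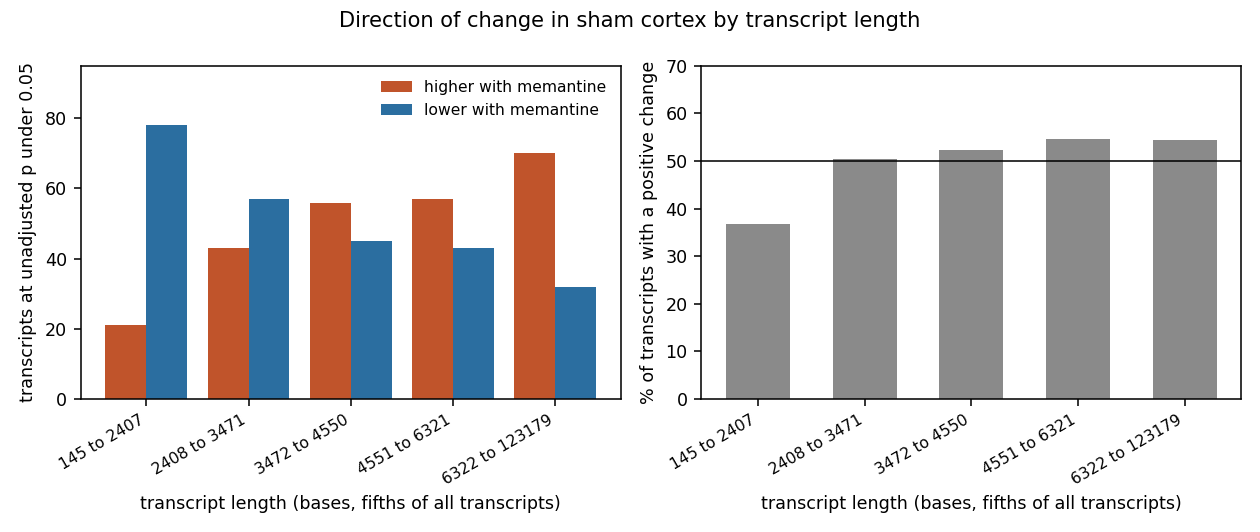
Left, number of transcripts at an unadjusted p-value under 0.05 (y axis) that were higher or lower in memantine sham, in 5 bins of transcript length in bases (x axis). The bins hold about equal numbers of transcripts and differ in width. Right, percentage of all transcripts in each bin with a positive log2 change, with a line at 50%. The lower calls outnumber the higher ones in the shortest bin and the reverse holds in the longest.

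Of hormone and cell type lists, the share called was 30% for glucocorticoid genes, 18.2% for cortical layer, 20% for interneuron, 10% for cholesterol synthesis and 5.88% for astrocyte genes, beside 7.9% over all gene sums. In the glucocorticoid list of 10 genes, both steroid receptors rose, Nr3c1 by 5.55% and Nr3c2 by 5.34%, and Fkbp5, a target that dampens receptor signalling, fell from 1075 ± 192 to 905 ± 139 counts. All 10 memantine libraries of Fkbp5 were below the saline mean (limma p = 0.0346 unadjusted and 0.581 adjusted). The list as a whole had 5 positive and 5 negative changes, with a median of 0.01. Over 29 alternative fits, 1 or 2 of its genes rose and 0 or 1 fell. Of 11 cortical layer genes 2 rose, among them Tbr1 by 12.8%, and of 20 cholesterol synthesis genes 2 rose, among them Sc5d by 5.72%. Gja1, an astrocyte gap junction gene, fell by 6.97%, 1 of 17 astrocyte genes, and Reln, made by some interneurons, fell by 7.77%, which with Gad1 made 2 of 10 interneuron genes. Lists for oligodendrocytes, microglia, endothelium, striatum, thalamus, hippocampus, choroid plexus, thyroid hormone and amino acid stress gave 0 calls in 13, 6, 7, 14, 2, 1, 1, 6 and 8 genes, and no blood marker was in the table.

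Larger changes were found in single transcripts rather than in genes. Of 513 called transcripts, 44 changed by over 30% in count and 37 of these belonged to genes with other measured transcripts, as did 20.7% of all called transcripts and 24.5% of all transcripts, while 7 gene sums changed by as much. NM_001163447 of Mapk8ip3, a scaffold of axonal transport, ran from 672 to 1533 counts in saline sham (median 982) and from 234 to 818 in memantine sham (median 548). It made up a median of 12.7% of the Mapk8ip3 counts in saline sham and 6.73% in memantine sham, while the most abundant one, NM_013931, had medians of 55.8% and 56.5%. The adjusted limma p-value of NM_001163447 was 0.229. Another transcript of the gene, NM_001163450, rose by 20.2% (limma p = 0.0309 unadjusted and 0.634 adjusted). Its median share was 17.4% in saline sham and 20.8% in memantine sham.

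A transcript of R3hdm2, NM_001168293, rose by 39.8%, from 1055 ± 183 to 1475 ± 279 counts, in 10 of 10 memantine libraries above the saline mean (adjusted limma p = 0.281). The largest count changes among called transcripts had libraries of a group spread widely. NM_001185021 of the kinase gene Wnk1 ran from 0 to 935 counts in saline sham and from 317 to 2822 in memantine sham, and NM_001347575 of the neuronal transcription factor gene Mef2c from 408 to 3859 and from 211 to 577. Their adjusted limma p-values were both 0.634. Another transcript of Wnk1, NM_198703, fell from 2886 ± 417 to 2066 ± 837 counts (limma p = 0.032 unadjusted and 0.634 adjusted). Dctn1 NM_007835 and Clcn4 NM_001302386 were among the other large rises, and Mef2c NM_001347576, Rps6ka3 NM_148945 and the transcript NM_001290562 were the other large falls, with adjusted p-values from 0.554 to 0.646. In total, 25 of the 106 called transcripts that belong to genes with other transcripts had a gene sum of the opposite sign, and 19 had a gene sum called in the same direction.

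Across all called gene sums, clock genes included, the sham changes could be set against the HF-HI libraries. Of the 464, 316 (68.1%) had the same sign in HF-HI mice, beside 56.9% of all gene sums. Of the 464, 17 also passed the unadjusted threshold there, 13 of them in the same direction. The median change of the 464 in their sham direction was 0.10 in sham mice and 0.02 in HF-HI mice on the log2 scale. As the 464 were chosen by their sham change, a smaller median in HF-HI mice follows from that choice and is no test of a difference between the mice.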

How the data were processed

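The deposited values were variance-stabilised log2 values per RefSeq transcript, made by the authors from cortical RNA. The methods of the authors name ribosomal depletion, stranded libraries, STAR, eXpress and DESeq2, whereas the submitters' processing notes name HISAT2, StringTie and mm10. The alignment was not rechecked here. Inverting the transformation, whose value at no reads is 10.36, gave normalised counts (100% of values under 5000 were whole reads over a library factor, tolerance 0.05), which were summed by symbol. Symbols were found for 6819 transcripts.

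The test was limma 3.58.1 (R 4.3.3, variance trend, two-sided), with 4 group terms over 40 libraries, on the deposited log2 values for transcripts and on log2(count + 1) for gene sums. No count model was run, and the counts recovered by the inversion served the gene sums and the levels given. Named genes were the 8 rising and 8 falling transcripts and gene sums of smallest p, the 4 largest called changes each way, all clock genes, NMDA subunits and immediate early genes, and called members of the other lists. The comparison and the 31 gene lists were chosen with earlier results of these data known. Permutation tests used 100000 resamples of the sham libraries. The fit was tested on simulated data. A few genes are not reported here. Transcript lengths came from GENCODE vM21 and covered 98.1% of transcripts.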

Additional observations from a re-analysis of the deposited data

Results flagged for a closer look

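A library lay far from the other 9 of its group in 9 of 248 groups of named values (Dixon's ratio of the gap to the group's range, at the 95% critical value). Chance would give about 12.4 if the groups were independent. A gene with a single measured transcript can enter both as transcript and as gene sum, and many values were named for a small p-value. No conclusion is therefore drawn from that figure. In saline sham the ratios were 0.919 for NM_007835 of Dctn1 (replicate 3 at 2769 counts, the next at 614.2), 0.671 for Rorb (replicate 10 low, at 1138), 0.529 for Rora and 0.516 for Cacna2d3. In memantine sham they were 0.653 for Nr3c1, 0.581 for NM_001347566 of Mef2c, 0.513 for Sc5d, 0.505 for Hspa8 and 0.489 for Cacna2d3. Memantine sham replicate 9 was the highest library for Nr3c1, Sc5d and Hspa8. Dbp, Tef, Nr1d2, Hlf, Per2, Per3, Cry2 and Arntl had no such library in either group. No drug change differed between sham and HF-HI mice at an adjusted p-value under 0.1 in limma.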

How the results depend on the processing

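Dbp, Tef and Nr1d2 gene sums had an adjusted limma p-value under 0.1 in all 30 alternatives, from 3.46e-05 to 0.00207, from 0.00121 to 0.0272 and from 0.00422 to 0.082. With the sham libraries alone these adjusted limma p-values were 0.00207, 0.0272 and 0.0299. Dbp as a transcript also held in 30, and Nr1d2 as a transcript in 26, the 4 exceptions being quantile normalisation, the replicate block, and leaving out replicate 5 of either sham group. With fits that each left out 1 library, the counts ran from 415 to 696 transcripts and from 371 to 687 gene sums at the unadjusted threshold, and from 1 to 4 transcripts and from 3 to 7 gene sums at the adjusted one. The adjusted count was 1 transcript where replicate 5 of either sham group was left out and 4 without memantine sham replicate 10, and 7 gene sums without saline sham replicate 1. Leaving out memantine sham replicate 1 gave 5 gene sums, and leaving out replicate 9 of that group gave 6. The adjusted count of 2 transcripts became 1 with quantile normalisation, 1 with the replicate block and 27 with the first residual component as a covariate, which was added after the data were seen. The adjusted count of 3 gene sums became 7 with array weights. The count of 513 transcripts became 332 with a mean count of at least 1000, where fewer transcripts were tested, and 118 at a p-value under 0.01, and that of 464 gene sums became 111 there. Causes were not tested otherwise. Where a value passed the unadjusted threshold in the main fit or in the refit, its direction did not reverse. Of 3327 refits of 112 named values, 194 lost that threshold and 13 gained it. Signs did change among values that passed in neither fit. Of 5 NMDA subunit genes, 1 was negative in the main fit and 3 with quantile normalisation. The Ttr level as a covariate, also added, gave 546 transcripts and 519 gene sums at the unadjusted threshold.

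Libraries with the same number in both sham groups deviated together no more than others (correlations from -0.229 to 0.17, 3 of 10 over 0.1, 1 of 10 libraries best matched to its own number), so across the transcriptome the numbers were not taken to pair the libraries. The block gave 507 transcripts and 474 gene sums at the unadjusted threshold. Per2 levels did follow the number in both sham groups. Arntl levels did so in memantine sham, where replicates 1 to 5 all lay below replicates 6 to 10. The memantine library was the higher in 10 of 10 same-number pairs for Per2 and in 9 of 10 for Per1 and Cry2, and with the block the unadjusted limma p-value was 0.0289 for Per1, which then passed, and 0.0001 for Per2 (adjusted 0.118). Depth was similar in all libraries, and genes below the abundance limit of the table were not analysed here.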
